A study of Mus musculus with 9 samples.

Results

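The genes described here encode the contractile apparatus of smooth muscle, the tissue that tightens airways and blood vessels in the lung. They are 10 genes of the 32114 in the deposited expression table, taken by symbol: the actins Acta2 and Actg2, the tropomyosin Tpm2, the myosin heavy chain Myh11, the actin-binding proteins Cnn1, Tagln, Lmod1 and Smtn, the intermediate filament protein Des, and the transcriptional coactivator Myocd. Each symbol occurred once in the table. Levels were measured by RNA-seq of polyadenylated RNA in whole lung of 12-week-old mice, in 3 libraries per group. The mice of the LPS group received 50 µg of lipopolysaccharide (LPS, a bacterial cell-wall component that inflames the lung) each. A second treated group, LPS plus PD, was given LPS together with PD, inhaled as an aerosol at 10 mg/mL and read here as the panaxadiol of the study's title. The LPS dose of that group and the time of lung collection are not stated in the labels. Control mice were given sterile 0.9% saline. The study's design text gives 6 animals per group, and no label ties a library to an animal, so p-values measure only the spread between libraries.

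In smooth muscle, force is made where myosin heads pull on actin filaments. Calcium entering the cell switches on myosin light chain kinase, and proteins on the actin filament such as calponin and tropomyosin set how readily myosin can pull. The contractile genes share a regulator: serum response factor, joined by its coactivator myocardin, binds a short A/T-rich motif, the CArG box, beside many of them. In normal lung these genes mark airway and vascular smooth muscle, and Acta2 also marks contractile fibroblasts.

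Acta2 is shown here with its motif sequences because it was the most abundant of the genes in all 9 libraries and its CArG boxes are a textbook example. In the RefSeq promoter table of GRCm38.p6, 6 of the 10 genes had an entry. The 250 bases before each start were searched for the CArG box allowing 1 substitution among its 6 inner bases, a form that reads the same on both strands. Acta2 held 2 matches, at chr19:34255438-34255467 and chr19:34255388-34255417 on the minus strand with their flanks, 5′ to 3′ and with the box in capitals.
Acta2 first box: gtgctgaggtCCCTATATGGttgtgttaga
Acta2 second box: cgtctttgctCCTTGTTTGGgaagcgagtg
The boxes end 75 and 25 bases before the RefSeq start, and each departs from the exact motif by 1 inner base. GENCODE M21 places both inside the untranslated first exon of its Acta2 model, which starts further upstream. Of 32851 promoters of that length, 8.59% held at least 1 such match and 0.670% held at least 2. The windows of Cnn1, Des, Lmod1, Smtn and Tpm2 held no match. In GENCODE M21 the Smtn window lies inside the gene, and those of Cnn1, Lmod1 and Tpm2 reach into theirs. Sequence outside these windows was not searched, so boxes elsewhere may exist. Myh11, Tagln, Actg2 and Myocd were not in the table.

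None of the genes passed the test in any of the 3 comparisons. Of the 10 genes 9 had a mean of at least 0.5 FPKM (fragment counts divided by gene length and library size) and were tested, with limma on log2(FPKM + 1) and a Benjamini-Hochberg adjusted p under 0.05 over 16227 genes. Between LPS and control lungs 0 of 9 were called, while 3.78% of all genes were, and 3 of the 9 (Cnn1, Lmod1 and Tpm2) had an unadjusted p under 0.05, as 29.9% of all genes did. Between LPS plus PD and LPS lungs 0 of 9 were called, against 0% of all genes, with 0 of 9 at an unadjusted p under 0.05, against 4.02% of all genes. Between LPS plus PD and control lungs 0 of 9 were called, against 0.789% of all genes, and 3 (Cnn1, Actg2 and Myh11) had an unadjusted p under 0.05, as 19.2% of all genes did. Voom on read numbers recovered from the FPKM values also called 0 of 9 in each comparison. In whole lung, fewer smooth muscle cells and less RNA per cell cannot be told apart.

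Depth was 15.2 to 19.2 M reads per library. The second LPS library stood apart, with a highest correlation of 0.914 with any other library, against at least 0.971 for the rest, and mitochondrial genes took 3.56% to 14.2% of the FPKM total, most in the second control library. The alveolar type 2 marker Sftpc was at 2085 to 12360 FPKM in all libraries, as lung tissue has. The labels call all mice female, but Xist, which females express from the inactive X chromosome, was at 0.0183 to 0.0894 FPKM while the Y-linked Ddx3y was at 15.4 to 31.9 FPKM in every library.

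Of the thin filament genes, Acta2 (ENSMUSG00000035783, chromosome 19, 34241090 to 34255590, minus strand, GRCm38) encodes smooth muscle alpha-actin, the main actin of the contractile filament. The position is that of GENCODE M21, and the deposited data give a different one for Acta2. Acta2 was at 352, 160.4 and 242 FPKM in LPS lungs, 123, 250.3 and 143 FPKM in LPS plus PD lungs, and 316, 381 and 161 FPKM in control lungs. All 3 groups overlapped, and the control libraries alone spanned 2.37-fold. The log2 difference of LPS from control lungs was -0.17 ± 0.42 (SE, adjusted p = 0.803, 95% interval -1.11 to 0.78). That of LPS plus PD from LPS lungs was -0.54 ± 0.42 (adjusted p = 0.866), and that of LPS plus PD from control lungs was -0.71 ± 0.42 (adjusted p = 0.383).

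Actg2 (ENSMUSG00000059430, chromosome 6) encodes gamma-2 actin, the enteric smooth muscle actin, which is also made in other smooth muscle. It was at 43.9, 32.8 and 46.4 FPKM in LPS lungs, 17.0, 50.1 and 17.1 FPKM in LPS plus PD lungs, and 63.9, 82.7 and 31.0 FPKM in control lungs. LPS plus PD libraries 1 and 3 were the lowest of the 9, and LPS plus PD library 2 lay above all 3 LPS libraries, so the groups overlapped. The difference of LPS plus PD from control lungs was -1.13 ± 0.46 on the log2 scale (adjusted p = 0.233), and that of LPS from control lungs was -0.42 ± 0.46 (adjusted p = 0.549). Actin genes are close relatives. The 50-base windows of the longest Acta2 and Actg2 transcripts were compared with each other and with Actc1, Acta1 and Actb. Exact sharing was found in 0 of 1986 and 0 of 1284 windows. Only exact matches were sought, so the exchange of reads with mismatches between actin genes was not tested.

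Tpm2 (ENSMUSG00000028464, chromosome 4) encodes beta-tropomyosin, which lies along the actin filament. It was at 33.0, 11.8 and 26.0 FPKM in LPS lungs, 22.0, 24.4 and 26.6 FPKM in LPS plus PD lungs, and 48.4, 72.2 and 26.7 FPKM in control lungs. The LPS plus PD libraries were within 1.21-fold of each other and all lay below the control libraries, the nearest by a small margin (26.6 against 26.7 FPKM), while LPS and control lungs overlapped. The log2 difference of LPS from control lungs was -1.03 ± 0.41 (adjusted p = 0.139) and that of LPS plus PD from control lungs was -0.88 ± 0.41 (adjusted p = 0.284). LPS plus PD lungs differed from LPS lungs by 0.15 ± 0.41 (adjusted p = 0.948).

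Myh11 (ENSMUSG00000018830, chromosome 16) encodes the smooth muscle myosin heavy chain, the motor of the thick filament and a marker of differentiated smooth muscle. It was at 35.4, 15.1 and 26.2 FPKM in LPS lungs, 23.4, 25.2 and 21.3 FPKM in LPS plus PD lungs, and 49.2, 58.1 and 24.9 FPKM in control lungs. The third control library lay among the treated ones, so no pair of groups separated. The mean was 25.6 ± 10.2 FPKM in LPS lungs, 23.3 ± 1.93 FPKM in LPS plus PD lungs and 44.1 ± 17.2 FPKM in control lungs (SD, n = 3 each). The log2 difference from control lungs was -0.76 ± 0.36 for LPS lungs (adjusted p = 0.188) and -0.81 ± 0.36 for LPS plus PD lungs (adjusted p = 0.258).

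**Figure D1:**
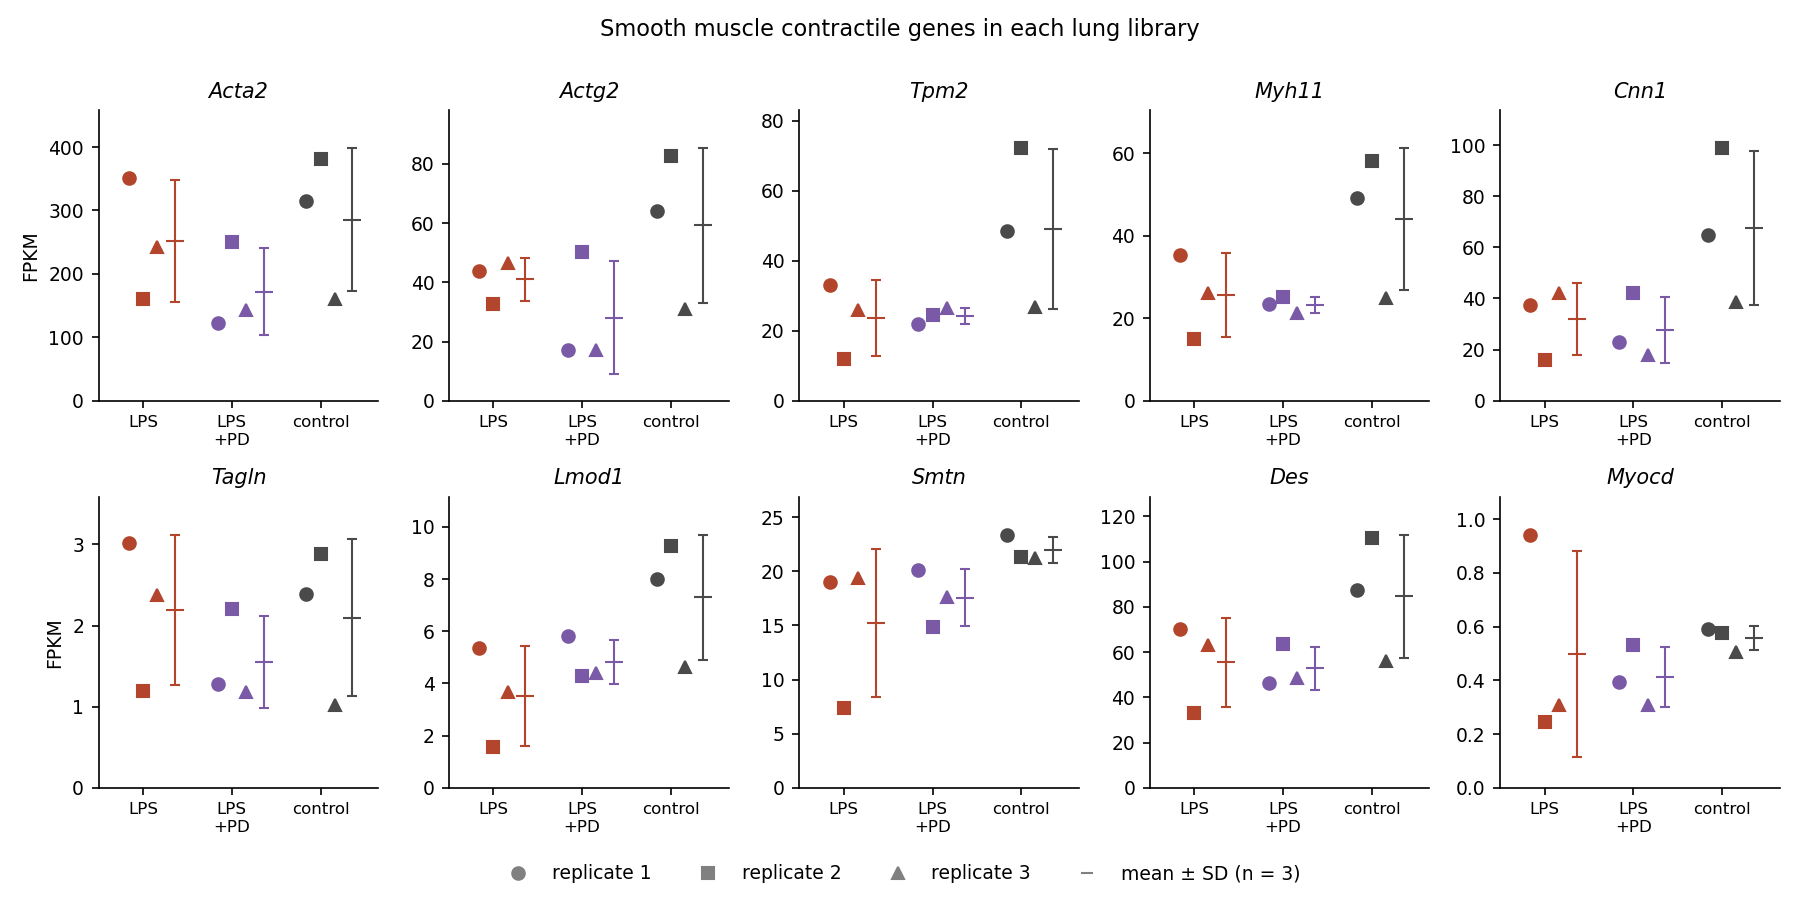
FPKM of each of the 10 smooth muscle genes (y axis, linear, from 0) in the LPS, LPS plus PD and control libraries, with markers for the replicates and bars for the mean ± SD of 3. The third control library sits within or below the LPS range for every gene but Smtn, and the second LPS library is the lowest of the 9 for 7 genes.

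Of the actin-binding regulators, Cnn1 (ENSMUSG00000001349, chromosome 9) encodes calponin-1, which binds actin and slows the myosin motor. It was at 37.5, 16.03 and 42.2 FPKM in LPS lungs, 23.1, 42.3 and 17.9 FPKM in LPS plus PD lungs, and 65.0, 98.9 and 38.6 FPKM in control lungs. The third control library lay below 1 library of each treated group, and the other control libraries lay above all treated ones. The log2 difference was -1.07 ± 0.47 for LPS against control lungs (adjusted p = 0.163, 95% interval -2.12 to -0.01) and -1.24 ± 0.47 for LPS plus PD against control lungs (adjusted p = 0.202). LPS plus PD lungs differed from LPS lungs by -0.17 ± 0.47 (adjusted p = 0.948). Without the second LPS and second control libraries the difference of LPS from control lungs shrank to -0.33 for Cnn1, -0.29 for Tpm2 and -0.38 for Lmod1.

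Lmod1 (ENSMUSG00000048096, chromosome 1) encodes leiomodin-1, which starts new actin filaments in smooth muscle. It was at 5.36, 1.55 and 3.68 FPKM in LPS lungs, 5.80, 4.27 and 4.39 FPKM in LPS plus PD lungs, and 7.99, 9.27 and 4.64 FPKM in control lungs. The second LPS library, with 93 reads, was the lowest, and the third control library lay below 1 library of each treated group. The log2 difference of LPS from control lungs was -0.93 ± 0.34 (adjusted p = 0.12), the lowest adjusted p of the 9 genes in that comparison. LPS plus PD lungs differed from LPS lungs by 0.45 ± 0.34 (adjusted p = 0.866) and from control lungs by -0.48 ± 0.34 (adjusted p = 0.47).

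Smtn (ENSMUSG00000020439, chromosome 11) encodes smoothelin, found on the actin filaments of contractile smooth muscle. It was at 19.0, 7.38 and 19.4 FPKM in LPS lungs, 20.1, 14.8 and 17.7 FPKM in LPS plus PD lungs, and 23.4, 21.3 and 21.3 FPKM in control lungs. All 3 control libraries lay above all 6 treated ones, and they were within 1.10-fold of each other, the narrowest control range of the 9 tested genes. Smtn was the 1 of 9 genes whose LPS and control libraries did not overlap, while 37.6% of all genes had none and 23.8% lay lower without overlap. For LPS plus PD and control lungs it was Smtn and Tpm2, 2 of 9, against 34% of all genes and 20.7% lower, and between LPS plus PD and LPS lungs 0 of 9, against 8.02%. The log2 difference of Smtn from control lungs was -0.61 ± 0.31 for LPS lungs (adjusted p = 0.221) and -0.32 ± 0.31 for LPS plus PD lungs (adjusted p = 0.609).

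Tagln (ENSMUSG00000032085, chromosome 9, 45929619 to 45936058) encodes transgelin, or SM22-alpha, an early marker of the smooth muscle lineage. It was at 3.01, 1.19 and 2.37 FPKM in LPS lungs, 1.28, 2.20 and 1.18 FPKM in LPS plus PD lungs, and 2.39, 2.88 and 1.02 FPKM in control lungs. The highest library was an LPS one and the lowest a control one, and all groups overlapped. The log2 difference was 0.05 ± 0.31 for LPS against control lungs (adjusted p = 0.919) and -0.30 ± 0.31 for LPS plus PD against LPS lungs (adjusted p = 0.872). These values rested on 35 to 100 reads per library. In the annotation 62.4% of the exon bases of Tagln, 1241 of 1988, are shared with the antisense gene Gm48529, itself at 0.673 to 1.96 FPKM, and whether reads were counted by strand is not stated in the labels or processing notes, so the level of Tagln is uncertain. Its level was ninth of the 10 genes in every library, although Acta2 was first.

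Des (ENSMUSG00000026208, chromosome 1) encodes desmin, the intermediate filament protein of all muscle types, the heart included. It was at 70.2, 33.0 and 63.2 FPKM in LPS lungs, 46.3, 63.8 and 48.4 FPKM in LPS plus PD lungs, and 87.5, 110.3 and 56.1 FPKM in control lungs. The third control library lay below 1 LPS plus PD library and 2 LPS libraries. The log2 difference from control lungs was -0.62 ± 0.33 for LPS lungs (adjusted p = 0.231) and -0.63 ± 0.33 for LPS plus PD lungs (adjusted p = 0.33), and LPS plus PD lungs differed from LPS lungs by -0.01 ± 0.33 (adjusted p = 0.996).

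Myocd (ENSMUSG00000020542, chromosome 11) encodes myocardin, the coactivator that turns the other genes on. It was at 0.942, 0.245 and 0.308 FPKM in LPS lungs, 0.395, 0.530 and 0.308 FPKM in LPS plus PD lungs, and 0.592, 0.575 and 0.505 FPKM in control lungs, which is 24 to 101 reads. The first LPS library was above all others and the other 2 LPS libraries below all control ones. Its mean of 0.489 FPKM was under the 0.5 FPKM needed for the test, so it has no adjusted p. Serum response factor, its partner, was far more abundant: Srf was at 23.2, 11.8 and 19.8 FPKM in LPS lungs, 18.6, 17.4 and 20.4 FPKM in LPS plus PD lungs, and 18.3, 23.2 and 19.9 FPKM in control lungs.

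The order of the genes by FPKM, which is per length, was partly fixed. Acta2 and Des were first and second in all 9 libraries, and Lmod1, Tagln and Myocd filled the last places, in that order, in all. Actg2, Cnn1, Tpm2 and Myh11 traded the places between, with means of 42.8, 42.4, 32.4 and 31.0 FPKM over the 9 libraries, and their ranges overlapped throughout. Smtn, at 18.3 FPKM, was sixth or seventh.

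As a group, the 9 tested genes lay below control lungs on the log2 scale in most cases without passing the test. In LPS against control lungs 8 of 9 differences were below 0, with a median of -0.62, while the median of all genes was -0.11 and 60.1% of them were below 0. In LPS plus PD against control lungs 9 of 9 were below 0, as were 58.2% of all genes, with a median of -0.71 against -0.07. In LPS plus PD against LPS lungs 6 were below 0 and 3 above, with a median of -0.05. The median of all genes there was 0.03, and 43.9% of them were below 0. These comparisons share libraries. The differences were also taken without the second LPS and second control libraries, a choice made after the values were seen. In LPS against control lungs 6 of 9 were then below 0, with a median of -0.20 against -0.06 for all genes. The median then became -0.38 in LPS plus PD against LPS lungs, with 8 of 9 below 0, against -0.01 for all genes. In LPS plus PD against control lungs it became -0.46, with 9 of 9 below 0, against -0.08 for all genes.

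**Figure D2:**
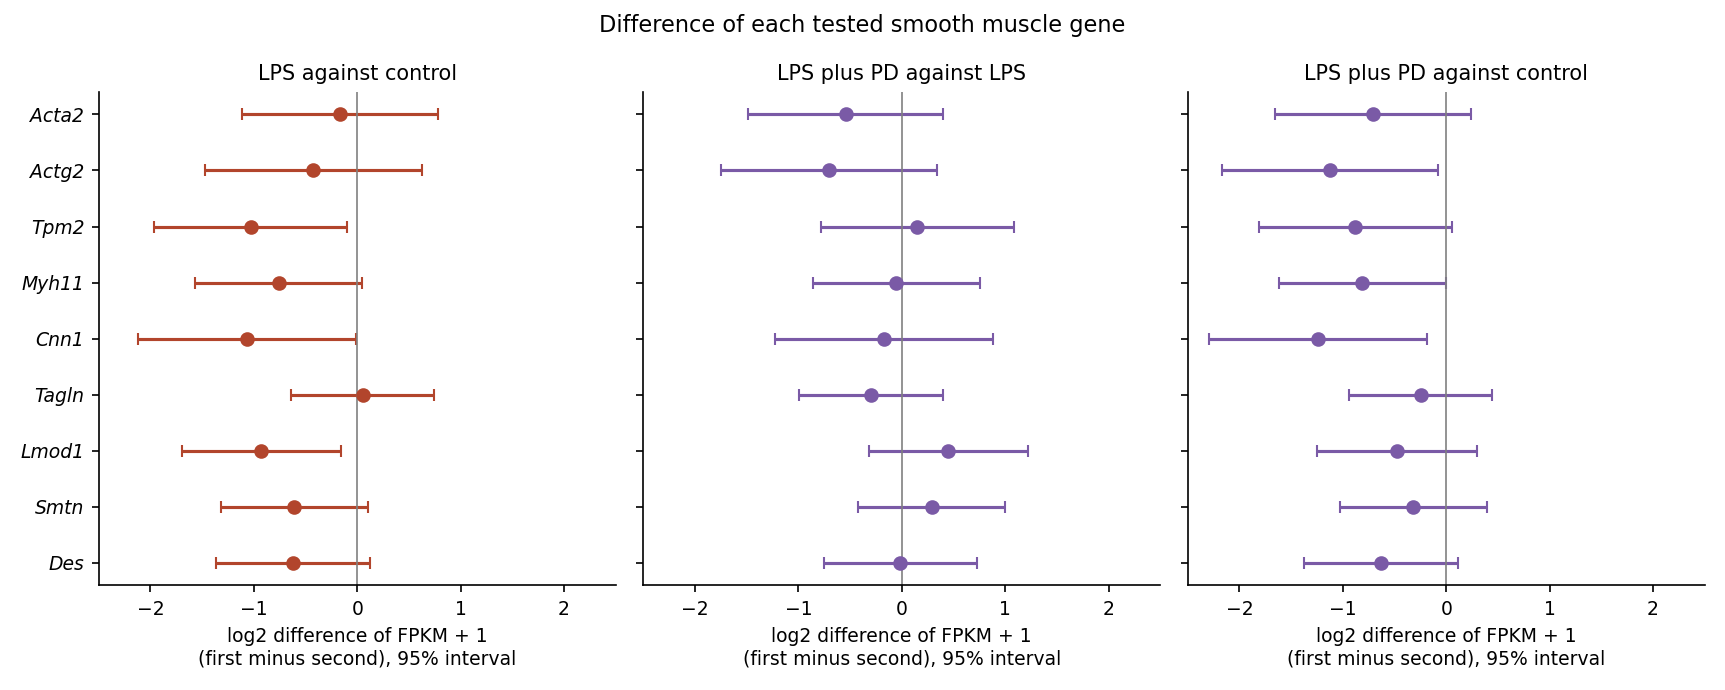
Log2 difference of FPKM + 1 with its 95% interval from limma (x axis) for the 9 tested smooth muscle genes (y axis), in LPS against control, LPS plus PD against LPS, and LPS plus PD against control lungs. Most points lie below 0 in the outer panels, such as Cnn1 at -1.07 and -1.24, and around 0 in the middle panel, and no gene passes the adjusted threshold.

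Libraries of the same group differed more for these genes than for most. The SD of log2(FPKM + 1) around the group mean was 0.43 to 0.67 for the 9 genes, with a median of 0.51, against a median of 0.25 for all genes tested. The standard errors of their differences were accordingly 0.31 to 0.47, against a median of 0.20. Cnn1 had the widest spread, and 5.81% of all tested genes exceeded it. Levels were not matched in these comparisons, and the log2(FPKM + 1) scale understates the spread of low genes. Between 12.4% and 50.0% of the variation of each of the 9 genes lay between the groups, with a median of 42.1%, against 39.2% for all genes. Part of such a share arises from the spread between libraries alone.

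Most of the genes were high and low in the same libraries. The second control library was the highest of the 9 for 7 genes, namely Acta2, Actg2, Cnn1, Des, Lmod1, Myh11 and Tpm2. The second LPS library was the lowest for 7, namely Cnn1, Des, Lmod1, Myh11, Myocd, Smtn and Tpm2. With group means removed, the 45 pairs of genes had Pearson correlations of 0.05 to 0.97 over the 9 libraries, with a median of 0.80, as a description of libraries that share depth and scaling. The tightest pairs were Tagln with Des and Tagln with Acta2, both at 0.97, and the loosest was Actg2 with Smtn at 0.05.

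The proportions of the genes within a library were compared as well. Each gene was taken as a percentage of the Acta2 FPKM of the same library, Acta2 being chosen after the values were seen. Myh11 was at 10.1%, 9.40% and 10.8% of Acta2 in LPS lungs, 19.0%, 10.1% and 15.0% in LPS plus PD lungs, and 15.6%, 15.3% and 15.5% in control lungs. The control values lay within a narrow band above all 3 LPS values, and those of LPS plus PD lungs spanned both. Tpm2 was at 9.37%, 7.38% and 10.8% of Acta2 in LPS lungs, 17.9%, 9.74% and 18.6% in LPS plus PD lungs, and 15.3%, 19.0% and 16.6% in control lungs. Lmod1 was at 1.52%, 0.964% and 1.52% in LPS lungs, 4.72%, 1.71% and 3.08% in LPS plus PD lungs, and 2.53%, 2.44% and 2.89% in control lungs.

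Of the 8 tested genes other than Acta2, 5 (Myh11, Cnn1, Des, Lmod1 and Tpm2) had LPS ratios below all control ratios without overlap, while 8% of 15699 genes detected in every library did and 11% did so in either direction. Each of the 5 had an exact two-sided permutation p of 0.1, the smallest that 3 against 3 libraries can give, so the design cannot pass 0.05. The log2 difference of these ratios was -0.62 for Myh11, -0.93 for Cnn1, -0.46 for Des, -0.998 for Lmod1 and -0.90 for Tpm2. That of Acta2 itself between the same groups was -0.17. The ratios thus largely repeat the differences of the 5 genes and are not separate evidence. Actg2, Smtn and Tagln overlapped, as did Myocd, which was below the filter. Without the second LPS and second control libraries, where fewer libraries make separation easier, Actg2 also lay lower and Tagln higher without overlap, while 20.4% of all genes then lay lower and 3.52% higher.

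Between LPS plus PD and LPS lungs, Lmod1 was the 1 of 8 genes whose ratio to Acta2 did not overlap (exact permutation p = 0.1), and it lay higher with LPS plus PD, as 6.96% of the 15699 genes did, or 26% of them without the second LPS and second control libraries. Between LPS plus PD and control lungs the ratio of Tagln lay higher without overlap, as did that of 8.26% of genes, and that of Cnn1 lay lower, as did 0.739%. The Cnn1 ratio was 18.7%, 16.9% and 12.6% in LPS plus PD lungs and 20.6%, 26.0% and 24.0% in control lungs. Every ratio moves with Acta2 itself, whose level in LPS plus PD libraries ran from 123 to 250.3 FPKM.

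**Figure D3:**
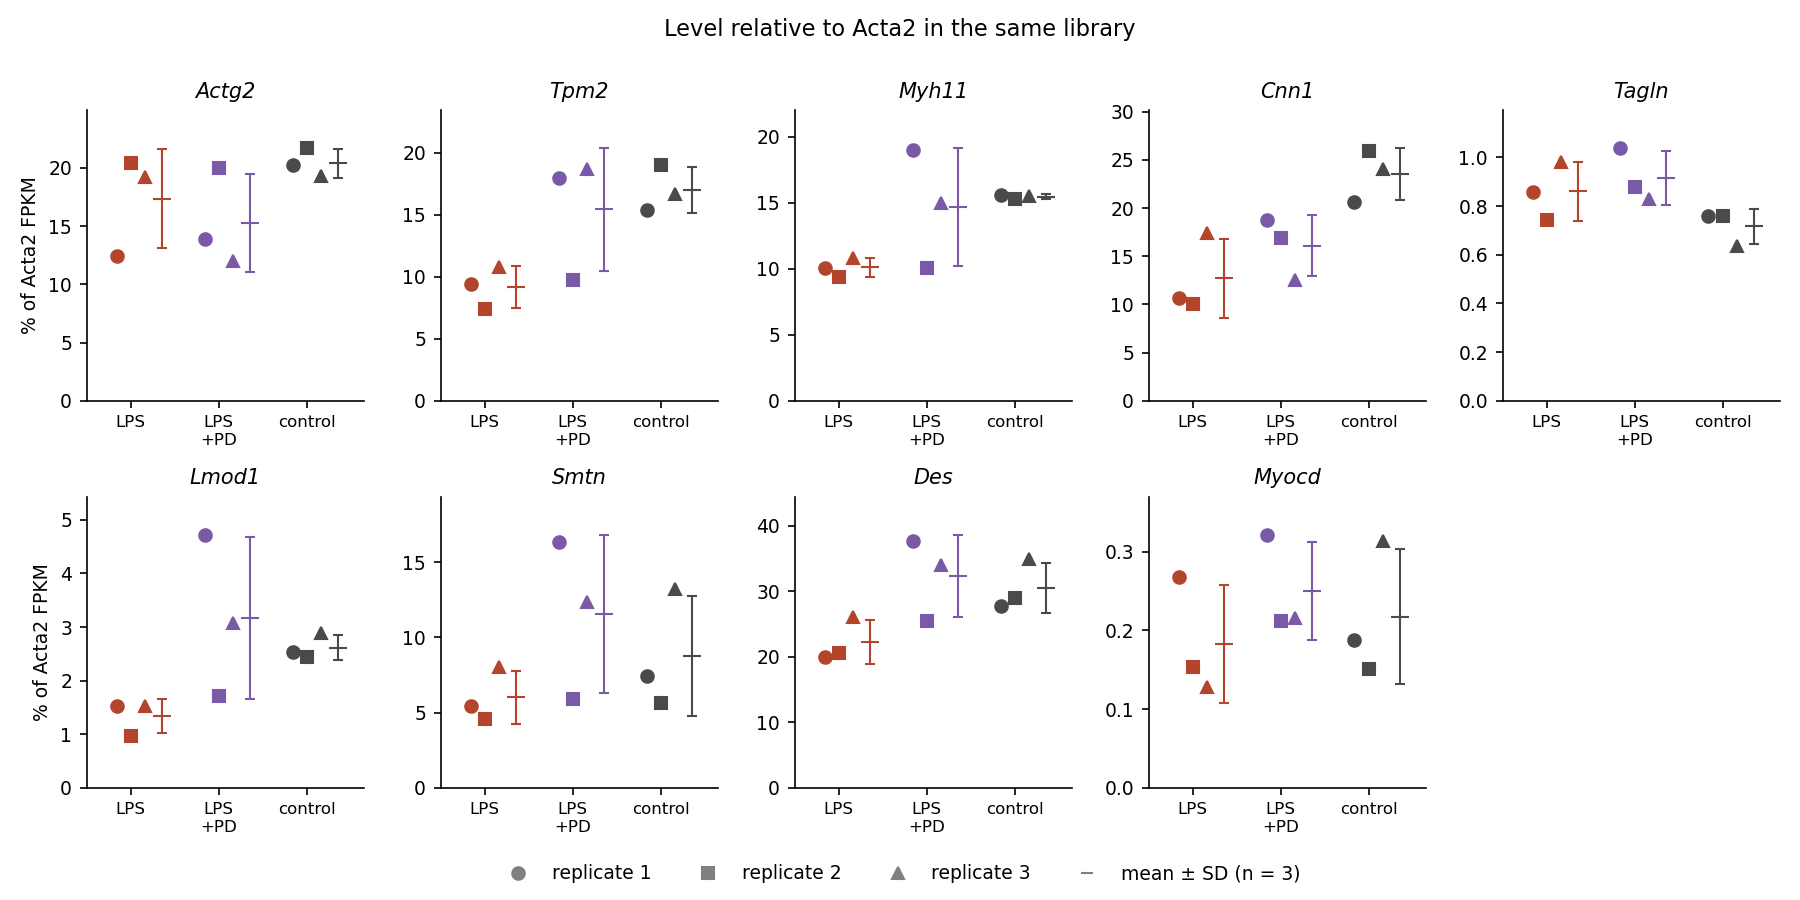
FPKM of 9 smooth muscle genes as a percentage of Acta2 FPKM in the same library (y axis, linear, from 0) in LPS, LPS plus PD and control libraries, with bars for the mean ± SD of 3. Myh11 sits at 9.40% to 10.8% in the LPS libraries, spans 10.1% to 19.0% in the LPS plus PD libraries and sits at 15.3% to 15.6% in the control libraries.

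The other genes of the pathway were taken from fixed lists. Of 24 further contractile and cytoskeletal genes of smooth muscle, 0 passed the test in any comparison, and their median log2 difference was -0.13 in LPS against control lungs. Cald1, which encodes the actin-binding caldesmon, had the smallest p of that list. Cald1 was at 27.6, 20.4 and 20.2 FPKM in LPS lungs and 15.3, 12.8 and 12.4 FPKM in control lungs (log2 difference 0.71 ± 0.16, limma adjusted p = 0.0506). All LPS libraries lay above all control ones, and 37.6% of all genes had no overlap in either direction. Myl9, the regulatory light chain that is phosphorylated to start contraction, was at 148, 40.2 and 127 FPKM in LPS lungs, 87.8, 128 and 106 FPKM in LPS plus PD lungs, and 237, 287 and 145 FPKM in control lungs. Its 9 libraries followed those of the 9 tested genes, and LPS and control lungs overlapped (log2 difference -1.22 ± 0.47, adjusted p = 0.129).

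Of 20 tested regulators of the smooth muscle programme, 1 fell in LPS against control lungs and 0 rose, while 3.78% of all genes were called. It was Klf5, a Krüppel-like transcription factor known from dividing smooth muscle cells, at 10.3, 6.64 and 8.15 FPKM in LPS lungs and 14.0, 17.7 and 14.4 FPKM in control lungs (log2 difference -0.82 ± 0.17, limma adjusted p = 0.0441). Its groups did not overlap, as for 37.6% of all genes. Leaving out any 1 of the 9 libraries, whichever it was, ended the call. Which cells of the whole lung gave the Klf5 signal was not tested. Of 14 calcium and potassium channel genes 1 fell in LPS against control lungs, beside the same 3.78% of all genes. It was Pln, encoding phospholamban, the brake on the calcium pump of heart and smooth muscle. Pln was at 0.261, 0.405 and 0.824 FPKM in LPS lungs, 2.03, 1.70 and 1.79 FPKM in LPS plus PD lungs, and 4.78, 6.51 and 1.95 FPKM in control lungs (LPS against control -1.77 ± 0.31, adjusted p = 0.0347), and the call held in 3 of the 9 fits that left out 1 library. Of 15 receptor genes 0 passed, with Ptgir, the prostacyclin receptor, at 0.87 ± 0.27 (adjusted p = 0.0895) and Adora2b, an adenosine receptor, at -0.53 ± 0.17 (adjusted p = 0.0946).

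In LPS plus PD against LPS lungs 0 genes of these 4 lists passed. The 2 smallest p of each list belonged to Flna (log2 difference -0.41) and Synm (0.72), Tgfbr1 (-0.45) and Mrtfa (-0.23), Pln (0.94) and Ano1 (0.35), and Adra1a (0.62) and Cysltr1 (-0.39), all at an adjusted p of 0.866 in limma. In LPS plus PD against control lungs 0 passed as well. Among the smallest p there were those of Synpo2 (-0.51), Tgfbr2 (0.55) and Klf5 (-0.63), Abcc9 (-0.51) and Pln (-0.83), and Adra1a (0.95) and Adora2b (-0.63). Their adjusted p ran from 0.0794 for the alpha-1A adrenergic receptor gene Adra1a to 0.214 for Synpo2, which encodes an actin-binding protein of muscle.

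Heart muscle genes differed between the same groups, and their part in the results was not tested. In LPS against control lungs 3.78% of all genes were called. Of 13 tested heart genes 10 fell and 0 rose in LPS against control lungs, with Myl7, the atrial light chain, at 1.12, 17.1 and 26.2 FPKM in LPS lungs, 84.3, 51.9 and 65.5 FPKM in LPS plus PD lungs, and 236, 396 and 83.7 FPKM in control lungs (log2 difference of LPS from control -4.30 ± 0.90, limma adjusted p = 0.0441). The call of Myl7 held in 2 of the 9 fits that left out 1 library. The 14 heart genes summed to 97.5 to 168 FPKM in LPS libraries, 222 to 292 FPKM in LPS plus PD libraries and 325 to 1253 FPKM in control libraries, and Pln, above, is also a heart gene. The first LPS library had the lowest heart signal of the 9, with a median log2 level of -4.25 relative to the control mean. In it the median of the 9 tested smooth muscle genes was -0.22 on the same scale. Acta2 at 352 FPKM, Tagln at 3.01 FPKM and Myocd at 0.942 FPKM lay above their control means there. Cnn1 at 37.5 FPKM and Smtn at 19.0 FPKM lay below all control libraries. Actg2 (43.9 FPKM), Des (70.2 FPKM), Lmod1 (5.36 FPKM), Myh11 (35.4 FPKM) and Tpm2 (33.0 FPKM) lay below their control means. Over the 9 libraries Myl7 had a correlation of -0.02 with Acta2, 0.19 with Actg2 and 0.34 with the mean standardised level of the 9 tested smooth muscle genes, as a description. The heart troponin gene Tnni3 had one of 0.43 with that level. These values include the first LPS library, where Myl7 was lowest at 1.12 FPKM. The correlation of Myl7 with the other members singly, such as Tpm2 and Des, was not taken. Actc1, the cardiac actin, was highest in the same library as both smooth muscle actins. It was at 83.9, 56.6 and 90.4 FPKM in LPS lungs, 49.2, 129 and 36.7 FPKM in LPS plus PD lungs, and 156, 221 and 82.7 FPKM in control lungs. Its correlation was 0.95 with Actg2, 0.84 with Acta2 and 0.40 with Myl7.

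Markers of other cells were measured in the same way, beside 3.78% of all genes called in LPS against control lungs. In LPS plus PD against control lungs that share was 0.789%. Of 12 ciliated airway markers 3 fell in LPS against control lungs, and their sums were 78.6 to 222 FPKM in LPS libraries, 182 to 246 FPKM in LPS plus PD libraries and 456 to 811 FPKM in control libraries. Tppp3 of that list was at 98.8, 33.0 and 107 FPKM in LPS lungs and 254, 404 and 258 FPKM in control lungs (log2 difference -2.07 ± 0.43, limma adjusted p = 0.0426), and the call held in 2 of the 9 fits that left out 1 library. Of 10 secretory airway markers 1 fell, Scgb3a2, and sums were 5208 to 30449 FPKM in LPS libraries against 23839.8 to 49191 FPKM in control libraries. Of 10 neutrophil markers 7 rose in LPS against control lungs and 2 in LPS plus PD against control lungs, with sums of 1253 to 4617 FPKM in LPS libraries, 1305 to 3991 FPKM in LPS plus PD libraries and 119 to 383 FPKM in control libraries. The second LPS library, lowest for 7 smooth muscle genes, had the highest neutrophil level, a median of 4.52 above the control mean on the log2 scale. The part of these cells in the smooth muscle values was not tested.

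Pericytes and fibroblasts share genes with smooth muscle. The share of all genes called in LPS against control lungs was 3.78%. Of 12 pericyte markers 0 passed in LPS against control lungs, with sums of 130.0 to 361 FPKM in LPS libraries, 284 to 352 FPKM in LPS plus PD libraries and 223 to 365 FPKM in control libraries. Of 16 fibroblast and matrix genes 1 rose (Pdgfra) and 1 fell (Col14a1) in LPS against control lungs, but 11 differences were below 0, with a median of -0.81, against -0.62 for the 9 smooth muscle genes. Their library medians relative to the control mean were -0.59, -1.31 and -0.39 in LPS lungs, -0.28, -0.57 and -0.06 in LPS plus PD lungs, and 0.34, -0.02 and -0.30 in control lungs, so all LPS libraries lay below all control ones. The part of fibroblasts in the smooth muscle values was not tested. Of 8 mesothelial markers 1 fell (Krt19), with 6 differences below 0 and 2 above, and of 10 endothelial markers 0 passed. Which cells gave the Krt19 signal was not tested. Of 4 tested skeletal muscle genes 1 fell (Ckm, also made in heart), and the 10 genes of that list summed to 2.95 to 5.81 FPKM in LPS libraries, 4.88 to 6.20 FPKM in LPS plus PD libraries and 7.54 to 13.5 FPKM in control libraries.

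**Figure D4:**
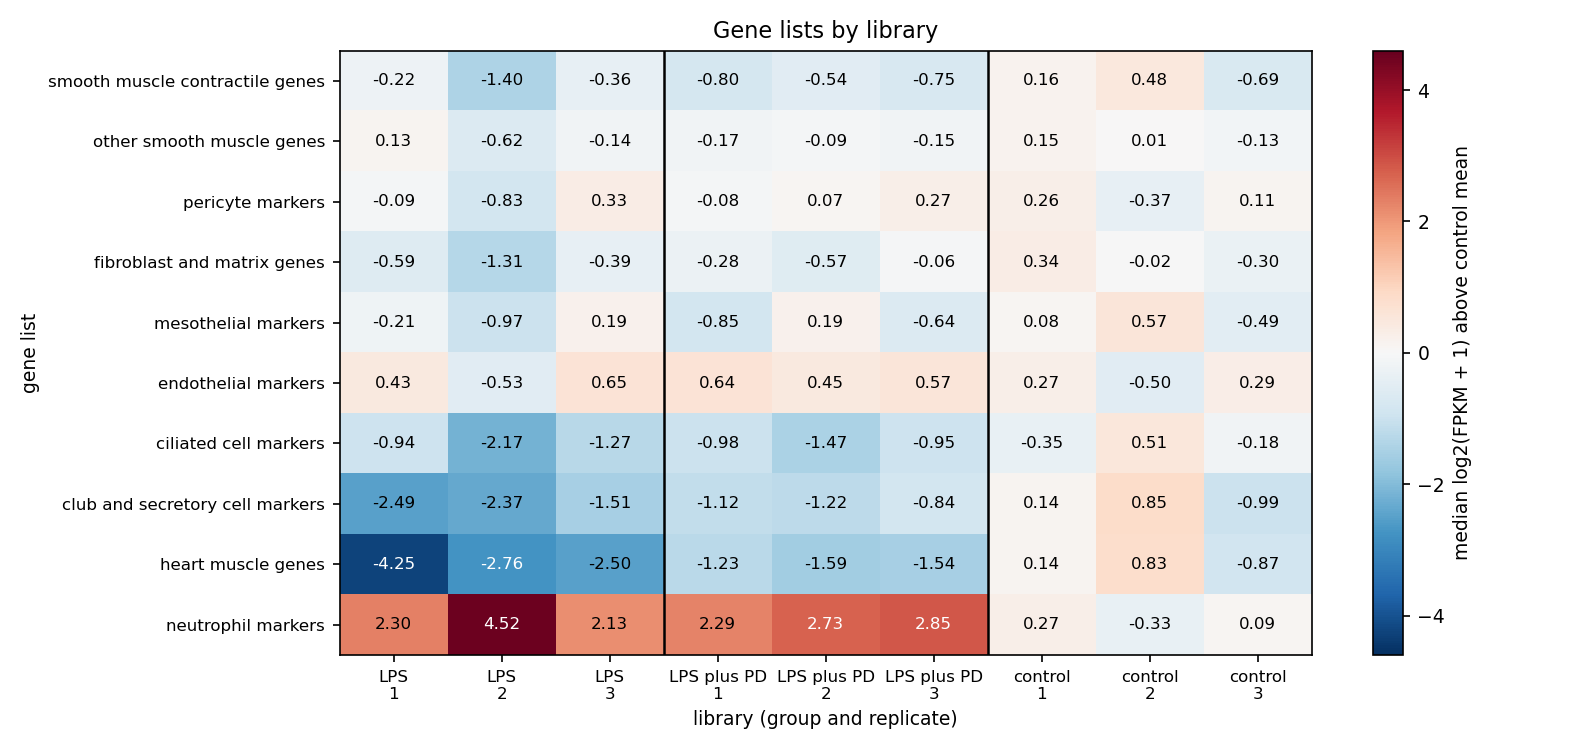
Median of log2(FPKM + 1) above the control mean over the genes of each list (rows) in each library (columns), from blue below to red above the control mean. The smooth muscle row is lowest in the second LPS library at -1.40, and the heart row is lowest in the first LPS library at -4.25.

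The genes whose pattern over the 9 libraries was most like that of the smooth muscle genes were named by their correlation with the mean standardised level of the 9 tested ones. Among 13366 candidate genes, 41 had a Pearson correlation of at least 0.9, and the median was 0.21. The 10 highest were Prnp (0.98), Scube3 (0.97), Cd55, Khdrbs3, Trabd2b, Kank1, Rian, Pdlim3 (0.95), Meg3 and Myl9 (0.95). Of these Pdlim3, a LIM protein of the actinin cytoskeleton, and Myl9 were on the list of further smooth muscle genes. Prnp, the prion protein gene, was at 76.7, 60.4 and 71.1 FPKM in LPS lungs, 66.0, 71.7 and 65.1 FPKM in LPS plus PD lungs, and 83.7, 91.0 and 73.7 FPKM in control lungs, the same libraries being high and low over a narrower range. With group means removed, 70 candidates reached 0.9, and Prnp (0.99) and Pdlim3 (0.98) led again, followed by Cbs, Larp1b, Cd55, Khdrbs3, Meg3, Scube3, Omd and Myl9.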

How the data were processed

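Gene-level FPKM of 9 lung libraries was taken as deposited by the authors, from a table that lists 32114 genes. The submitters' processing notes name HISAT2 and StringTie, beside bcl2fastq and FastQC, and the genome GRCm38. Not given in the sources used here: versions, settings and strand use. The deposited FPKM values move in steps. The depths were found from these steps in genes of a single exon, with GENCODE M21 exon lengths. At those depths 99.0% to 99.4% of their values under 100 reads were within 0.05 of a whole read. Over all genes it was 97.2% to 97.5%. FPKM scales to length and library total, so a gene with a large share lowers the others.

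Genes with a mean of at least 0.5 FPKM (16227) were tested on log2(FPKM + 1) without further scaling. The model held 1 mean per group and a variance trend, used every library, and ran in limma 3.58.1 under R 4.3.3, with Benjamini-Hochberg adjustment and a threshold of 0.05. A fold on this scale understates the change of low genes. The script was tested on simulated data. Tables were made with pandas 2.3.3 and numpy 2.4.6 in Python 3.11.15, and plots with matplotlib 3.10.9. Groups came from the labels. Of the alternatives, 20 settings were listed at the start and 3 were chosen after seeing the data. Named genes were the 10 members, up to 4 called genes of a pathway list or, where none was called, the 2 with the smallest p, and the 10 genes most like the members. Myl9, Srf, Actc1, Myl7 and Tppp3 were added after their values were seen. Members and lists were chosen with earlier results of these data known. No list was tested as a set. Some genes that this rule names, and 1 list, are not reported here.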

Additional observations from a re-analysis of the deposited data

How the results depend on the processing

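The 9 tested smooth muscle genes gave 0 calls in each comparison under all 23 alternatives. Of 618 single values of these genes 594 kept their direction and 24 reversed (9 in LPS against control, 15 in LPS plus PD against LPS, 0 in LPS plus PD against control lungs). In LPS against control lungs Acta2 became 0.033 with equal FPKM totals, 0.34 with array weights and 0.37 without the second LPS and second control libraries, Actg2 became 0.018 without both, and Srf became 0.15 with array weights and 0.16 without both. In LPS plus PD against LPS lungs Smtn became -0.024 and Tpm2 -0.33 with array weights, and -0.13 and -0.26 without both libraries. Leaving out each library in turn gave -0.53 to 0.12 for Acta2, -0.23 to 0.30 for Tagln and -0.39 to 0.071 for Srf in LPS against control lungs. For LPS plus PD against LPS lungs it gave -0.38 to 0.21 for Myh11, -0.59 to 0.082 for Cnn1, -0.34 to 0.19 for Des, -0.13 to 0.51 for Smtn and -0.26 to 0.44 for Tpm2. The other recomputed values kept their direction, and Myocd and the genes chosen for likeness, other than Myl9, were not recomputed. Several members shrank by over 1.5 times, as in LPS against control lungs without both libraries, where Cnn1 was -0.33, Lmod1 -0.38 and Tpm2 -0.29.

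The counts over all genes, against which the members were read, moved more. The 613 genes called in LPS against control lungs became 38 without a filter, 270 with a mean of at least 5 FPKM, 370 with median-ratio scaling (160 higher, 210 lower), 392 with equal totals (204 higher, 188 lower), 9 with only the 6 libraries compared, 3308 with array weights, 1011 when rescaled without mitochondrial genes (217 higher, 794 lower) and 110 without the second LPS and second control libraries, and 7 (without the second control) to 1038 (without the third LPS) when each library was left out. Leaving out any library other than the second LPS one moved that count by over 1.5 times. The median difference of all genes moved from -0.11 as deposited to 0.04 with equal totals, where 7 of 9 smooth muscle genes were still below 0 with a median of -0.42. The 0 calls in LPS plus PD against LPS lungs became 1 with median-ratio scaling, quantile normalization or without both libraries, and 2 with array weights, and stayed 0 when each library was left out. The 128 calls in LPS plus PD against control lungs became 6 without a filter, 1193 with 6 libraries, 1568 with array weights and 604 without both libraries, and 2 (without the first LPS plus PD) to 1613 (without the second LPS) when each was left out. With median-ratio scaling they were 81 higher and 54 lower, and with equal totals 87 and 44, against 61 and 67 as deposited. The cause was not tested, except that fewer genes or libraries enter some settings.

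Replicate numbers did not pair the libraries, since same-numbered ones had correlations of -0.18 to 0.19 in their deviations, with 1 of 9 pairs over 0.1, and 3 of 9 libraries correlated best with their own number. With the replicate number as a block, 10 genes were called in LPS against control, 0 in LPS plus PD against LPS and 4 in LPS plus PD against control lungs, none of them a smooth muscle member. With 3 libraries per group the standard errors of these genes were 0.31 to 0.47. Even the log2 difference of -1.24 for Cnn1 in LPS plus PD against control lungs did not pass the test. The 0 calls thus do not show that the genes were unchanged.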
